A study of Homo sapiens with 48 samples.

Results

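The TGF-beta ligands, their receptors and the SMAD proteins that carry or restrain their signal were followed through the transcriptome of HEK293 cells, a line from human embryonic kidney, stimulated with angiotensin II (AII) and epidermal growth factor (EGF). The genes were picked by symbol from the table of counts: TGFB1, TGFB2, TGFB3 and INHBA (ligands), TGFBR1 and TGFBR2 (receptors), SMAD3 (signal transducer), and SMAD6, SMAD7 and SKIL (inhibitors), 10 of 60610 listed genes. All 10 passed the filter on low counts, which left 19626 genes for testing. All cells came from 1 clone, selected with puromycin in the presence of losartan, that carries the human angiotensin receptor type 1 (AT1R) as a stable transgene. After the change to serum-free DMEM the cells received no stimulus (control), 1 nM AII, 10 µg/L EGF, or both at these doses (AII + EGF), each for 6 h or 24 h, and poly(A) RNA was sequenced from 6 libraries per group.

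Of the 48 libraries, 38 were used: 4 control, 5 AII, 3 EGF and 4 AII + EGF libraries at 6 h, and 6, 5, 5 and 6 at 24 h in the same order. The other 10 were left out on values seen in the data. In 4 pairs (8 libraries), 3 of them across different labelled groups, the libraries differed by less than sampling noise, with a chi-square per degree of freedom of 0.397 to 0.505, whereas the closest other pair reached 2.02. For AII 6 h replicate 6 and AII + EGF 6 h replicate 6 the labels were in doubt: on a scale over 1489 genes on which the other AII libraries average 0 and the other AII + EGF libraries 1, the first lay at 0.874 and the second at 0.0287. Since both reasons rest on the measured counts, the main results at 6 h are given with all 48 libraries too. Ranges and overlaps of single libraries refer to the libraries in use unless stated. The libraries in use held 22.3 ± 3.02 M (mega) counts (SD, n = 38), from 17.8 to 29.96 M, and the EGF 6 h group was the deepest (28.8 ± 1.02 M, n = 3, against group means of 20.7 to 23.3 M). AGTR1, the AT1R gene, lay between 3964 and 15240 CPM (counts per M counts of a library, scaled with TMM factors), and all 7 markers of HEK293 cells on the list were detected in every library. Of 8 markers of other cells, UMOD was at 0 in 48 libraries and PTPRC in 39, and only COL3A1 passed 1 CPM. Their summed level was mostly COL3A1. At 6 h it was 8.98 to 11.7 CPM in control, 17 to 22.1 under AII, 7.76 to 11.2 under EGF and 8.06 to 9.62 with both. At 24 h the same groups held 11.7 to 23.2, 18.5 to 29.4, 14.8 to 18.4 and 10.7 to 14.1 CPM. The part of these differences in the results was not tested.

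TGF-beta ligands are secreted in a latent complex, are released outside the cell, and bind TGFBR2, which then recruits and phosphorylates TGFBR1. The activated receptor phosphorylates SMAD2 and SMAD3, which enter the nucleus with SMAD4 and act on target genes. SMAD6 and SMAD7 are inhibitory SMADs, SMAD6 acting mainly on BMP signals and SMAD7 on TGF-beta signals as well, and SKIL (SnoN) represses SMAD-bound promoters. In kidney and vessel wall, TGF-beta is known for its role in fibrosis. Activin A, a dimer of the product of INHBA, signals through other receptors of the same family to SMAD2 and SMAD3.

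Called genes are those with an adjusted p under 0.01 (edgeR, quasi-likelihood, adjusted over all 19626 genes after Benjamini and Hochberg), a change of 1.5-fold or more, and a mean over 5 CPM in the higher group. The 3 members called against control, all after 6 h of AII + EGF, were TGFB1 and TGFBR2, which were higher, and SMAD6, which was lower. Their promoters are shown because the 3 genes differ in what lies before their start. Each is the 250 bases upstream of the RefSeq start on GRCh38.p14, 5′ to 3′ on the gene's strand. TGFB1 (ENSG00000105329, chromosome 19, 41330323 to 41353922, minus strand) is shown for chr19:41353923-41354172, TGFBR2 (ENSG00000163513, chromosome 3, 30606356 to 30694142, plus strand) for chr3:30606106-30606355, and SMAD6 (ENSG00000137834, chromosome 15, 66702236 to 66782849, plus strand) for chr15:66701986-66702235. Capitals mark matches, on either strand, to 7 motifs: the SP1 box GGGCGG, the EGR site GCGNGGGCG (which can overlap an SP1 box), the AP-1 site TGANTCA, the CRE TGACGTCA, the ETS site CCGGAAG, the SMAD palindrome GTCTAGAC and the CArG box of SRF.
TGFB1: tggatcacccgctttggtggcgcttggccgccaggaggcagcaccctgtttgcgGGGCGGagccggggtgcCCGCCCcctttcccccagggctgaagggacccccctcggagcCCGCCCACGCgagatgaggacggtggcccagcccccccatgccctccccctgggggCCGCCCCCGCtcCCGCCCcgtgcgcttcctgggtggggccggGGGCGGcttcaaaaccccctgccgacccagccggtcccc
TGFBR2: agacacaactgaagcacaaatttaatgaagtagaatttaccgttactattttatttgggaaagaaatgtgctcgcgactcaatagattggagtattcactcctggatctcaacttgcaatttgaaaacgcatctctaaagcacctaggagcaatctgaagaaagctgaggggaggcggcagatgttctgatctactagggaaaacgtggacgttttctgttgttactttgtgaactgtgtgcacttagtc
SMAD6: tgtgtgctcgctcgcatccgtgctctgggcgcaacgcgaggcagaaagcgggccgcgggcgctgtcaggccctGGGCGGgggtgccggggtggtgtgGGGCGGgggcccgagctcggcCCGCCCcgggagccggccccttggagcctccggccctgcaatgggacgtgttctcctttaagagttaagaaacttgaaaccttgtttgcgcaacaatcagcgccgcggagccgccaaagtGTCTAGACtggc

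The TGFB1 promoter held 6 SP1 boxes and 2 EGR sites, and was 76.8% G + C. The TGFBR2 promoter held no match to any of the 7 motifs and was 40.8% G + C. The SMAD6 promoter held 3 SP1 boxes and, starting at position -12 from the start site, 1 SMAD palindrome, and was 68.0% G + C. Of 35116 promoters of the same length, 42.6% held the SP1 box, 8.41% the EGR site and 0.182% the SMAD palindrome, and the AP-1, CRE, ETS and CArG motifs were found in 6.57%, 1.65%, 8.52% and 1.16%. Among the other members with a sequence, SMAD3 held 4 SP1 boxes and SKIL 3, with 1 EGR site and 1 CRE. A match is a stretch of letters and not evidence of binding.

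Per kb of exon, TGFBR1 stood highest in unstimulated cells at 6 h and INHBA lowest. The level was 9.32 ± 1.21 CPM per kb for TGFBR1 and 6.56 ± 0.633 for SMAD3 (SD, n = 4), and these 2 did not overlap each other or any other member. SKIL (4.10 ± 0.383), SMAD7 (3.92 ± 0.374), TGFB1 (3.60 ± 1.49) and TGFBR2 (3.48 ± 0.263 CPM per kb) followed with overlapping libraries. SMAD6 came next at 1.89 ± 0.226, overlapping TGFB1 only, then TGFB3 at 1.10 ± 0.179, TGFB2 at 0.468 ± 0.0789 and INHBA at 0.0119 ± 0.00547 CPM per kb. Under AII + EGF at 6 h TGFB1 led this order with 24.6 ± 1.97 CPM per kb (SD, n = 4), and its lowest library (22.5) lay above the highest TGFBR1 library (12.4).

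**Figure D1:**
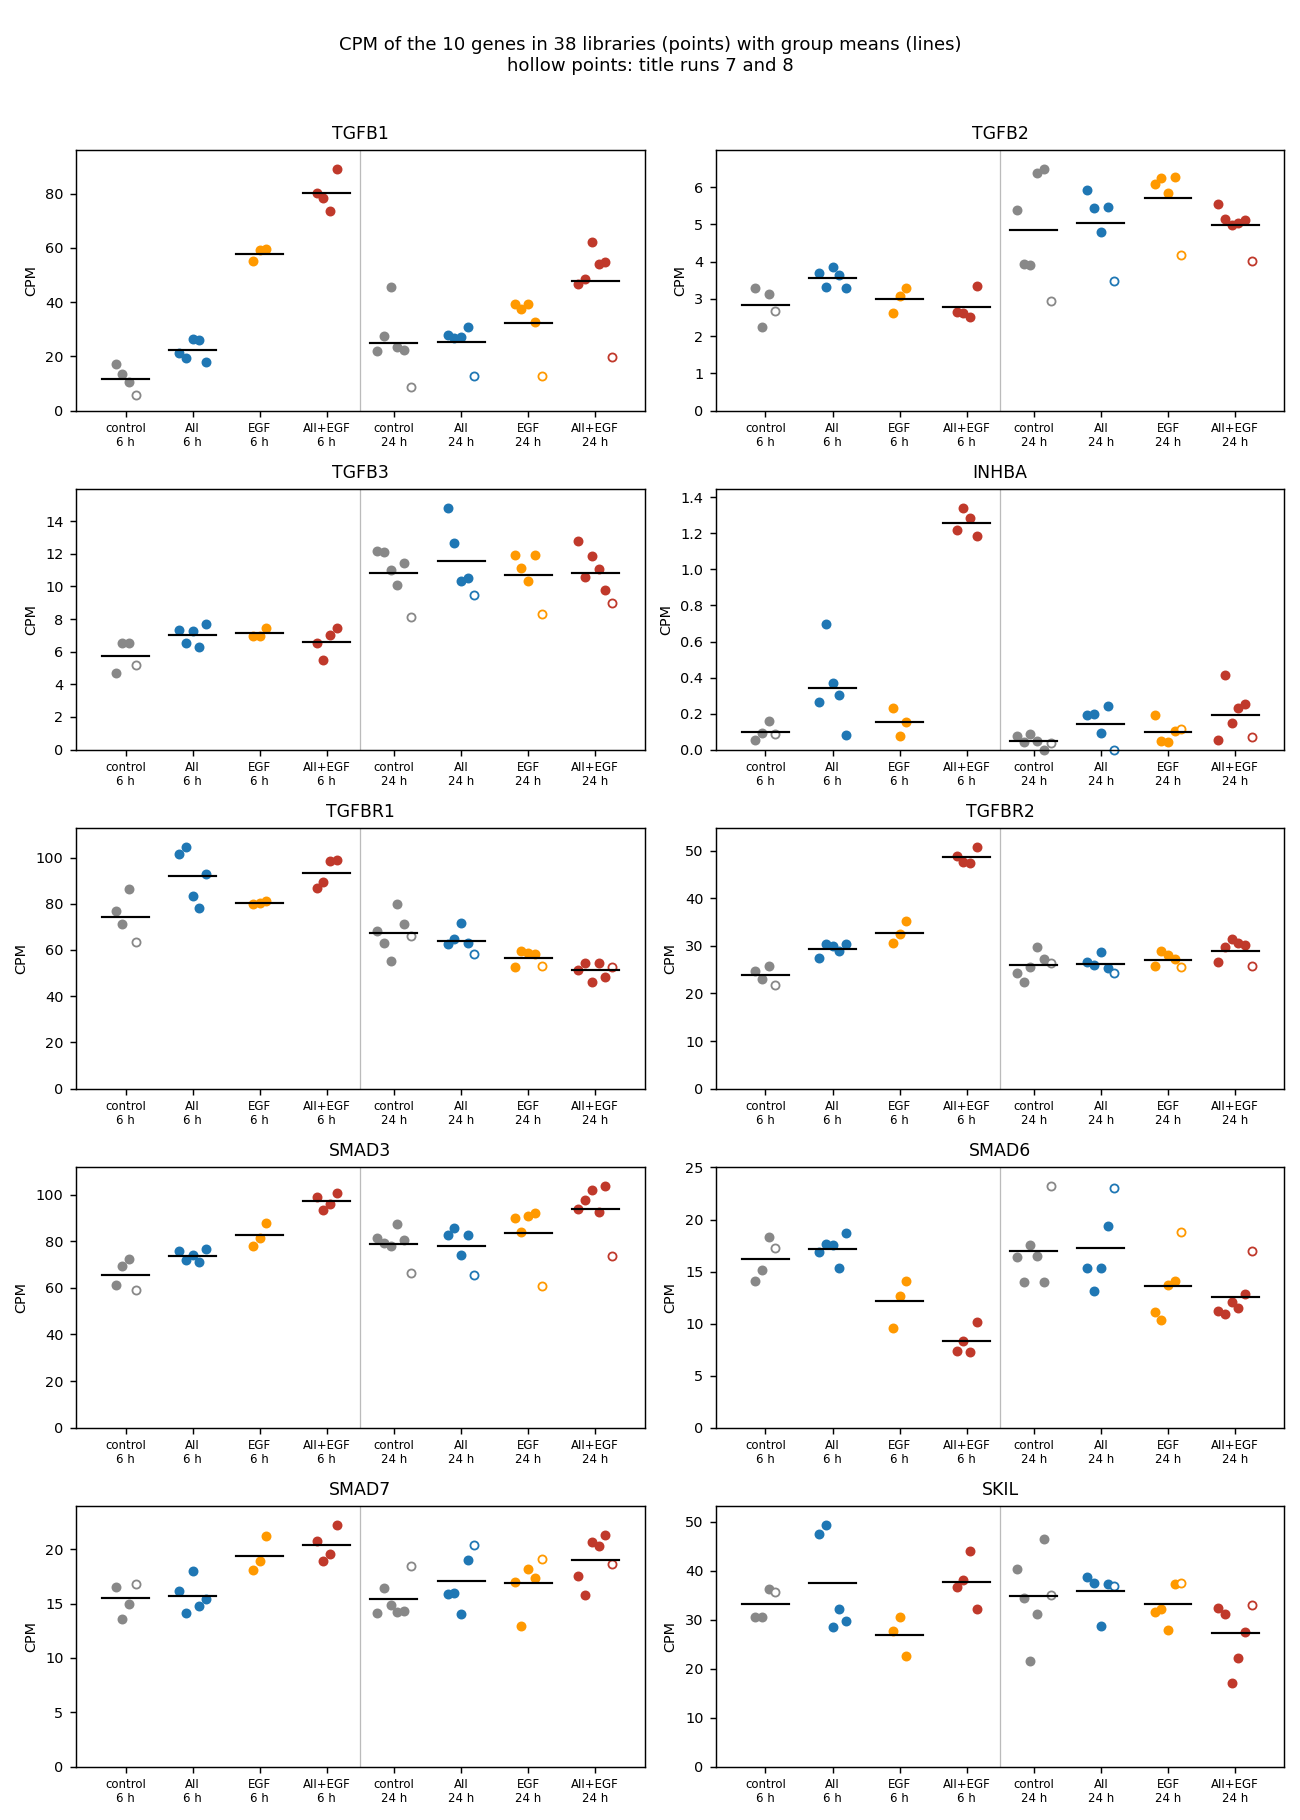
CPM of each of the 10 genes (y axis, linear from 0) in the 38 libraries (points) by treatment and time (x axis), with group means as lines and hollow points for the libraries of title runs 7 and 8. At 6 h the AII + EGF libraries lie apart from control for TGFB1, INHBA, TGFBR2, SMAD3, SMAD6, SMAD7 and, narrowly, TGFBR1, and at 24 h the hollow points are the lowest of each group for TGFB1.

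TGFB1, which encodes the most widely expressed TGF-beta ligand, rose after 6 h of EGF, with or without AII. In control it was 17.3, 13.4, 10.4 and 5.83 CPM in replicates 3 to 6. Under AII it was 21.1, 19.3, 26.6, 25.9 and 18.1 CPM, under EGF 55.1, 59.2 and 59.5 CPM, and under AII + EGF 80.5, 78.3, 73.6 and 89.0 CPM. The 4 groups did not overlap: every AII library lay above every control, every EGF library above every AII library, and every AII + EGF library above every EGF library. The change against control was 4.95-fold under EGF (log2 2.31 ± 0.37 SE, adjusted p = 3.27e-05) and 6.86-fold under AII + EGF (log2 2.78 ± 0.36, adjusted p = 7.65e-08). It was 1.90-fold under AII (log2 0.92 ± 0.33), which did not pass the test (adjusted p = 0.178). With all 48 libraries the log2 changes were 1.91 under EGF (adjusted p = 2.42e-04) and 2.08 under AII + EGF (adjusted p = 1.04e-05). Within the 2 runs of consecutive sample titles that hold control, EGF and AII + EGF at 6 h, the log2 difference of AII + EGF from control was 2.27 and 3.09, and that of EGF 1.91 and 2.51. The 6 h groups were not balanced over runs. Of the libraries in use, run 1 held only AII and AII + EGF, and run 7 only control replicate 6. In runs 4 and 5 the AII libraries (26.6, 25.9 and 18.1 CPM) lay above the controls of their run (17.3, 13.4 and 10.4 CPM).

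TGFB1 overlaps genes on the opposite strand, HNRNPUL1, TMEM91 and AC011462.1 (at most 1 count in a library), and the strand setting of the counting is not stated. Under AII + EGF at 6 h HNRNPUL1 changed by log2 -0.13 ± 0.09 (409 CPM in control, adjusted p = 0.30) and TMEM91 by -0.91 ± 0.35 (2.76 CPM in control, adjusted p = 0.0456). In that comparison neither tested partner was higher. Opposite-strand genes also overlap TGFB2 (TGFB2-AS1), TGFB3 (IFT43 and TGFB3-AS1), INHBA (INHBA-AS1) and SMAD3 (AC087482.1). On the same strand TGFB2-OT1 overlaps TGFB2. What these add to the counts was not tested.

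INHBA, the activin A subunit gene, was hardly expressed, and was highest under AII + EGF at 6 h. Control libraries held 1 to 3 counts each (8 in all), AII libraries 2 to 13 (33), EGF libraries 2 to 6 (12) and AII + EGF libraries 23 to 25 (97). Corrected for depth, the AII + EGF libraries exceeded control 12.9-fold (95% exact counting interval 6.29 to 30.7), and no library in use of another group reached them. The edgeR change was log2 3.61 ± 0.54 (adjusted p = 1.38e-06), and 3.24 with all 48 libraries (adjusted p = 8.23e-06), but the mean of 1.26 ± 0.0673 CPM (SD, n = 4) was under the 5 CPM minimum and the gene was not called. At 24 h control libraries held 0 to 2 counts (7 in all; a count of 0 allows up to 3) and AII + EGF libraries 1 to 9 (26), a ratio of 4 (interval 1.69 to 10.9), with log2 1.89 ± 0.60 and adjusted p = 0.0229. The intervals cover counting error only.

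The other 2 TGF-beta ligands did not follow TGFB1. TGFB2 was at 2.83 ± 0.477 CPM in control (n = 4), 3.56 ± 0.247 under AII (n = 5), 2.99 ± 0.342 under EGF (n = 3) and 2.78 ± 0.386 under AII + EGF (n = 4) at 6 h, and every stimulated group overlapped control, AII only at its edge (lowest AII library 3.28 CPM, highest control 3.30). Its log2 change under AII + EGF was -0.02 (95% interval -0.43 to 0.39, adjusted p = 0.954). TGFB3 was at 5.72 ± 0.937 CPM in control and 6.62 ± 0.825 under AII + EGF (SD, n = 4 each), with a log2 change of 0.21 (interval -0.09 to 0.52, adjusted p = 0.306). An exon of TGFB3 overlaps the span of the IFT43 gene on the opposite strand. IFT43 was lower under AII + EGF at 6 h (log2 -0.75 ± 0.16, adjusted p = 2.75e-04). At 24 h the log2 changes of both under AII + EGF were 0.04 (-0.27 to 0.35) for TGFB2 and 0.00 (-0.23 to 0.23) for TGFB3.

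TGFBR2, which encodes the receptor that binds the ligand, rose under AII + EGF at 6 h, and TGFBR1, which encodes its signalling partner, changed less. TGFBR2 was at 24.8, 23, 25.8 and 21.8 CPM in control, at 27.4, 30.4, 29.9, 28.8 and 30.4 CPM under AII, at 30.5, 32.6 and 35.2 CPM under EGF, and at 48.8, 47.6, 47.5 and 50.7 CPM under AII + EGF. Among the libraries in use, no library of 1 of these 4 groups lay within the range of another. Of those left out, AII 6 h replicate 6 was at 42.3 CPM and AII + EGF 6 h replicate 6 at 27.3 CPM. EGF 6 h replicate 1 was at 40.2 CPM. The rise was 2.04-fold under AII + EGF (log2 1.03 ± 0.08, adjusted p = 2.10e-12), and 0.79 on the log2 scale with all 48 libraries (adjusted p = 2.63e-07). Under EGF the log2 change of 0.46 ± 0.09 passed the p threshold (adjusted p = 5.75e-04) but not the 1.5-fold minimum, and with all 48 libraries it was 0.34 and missed both (adjusted p = 0.0235). Under AII it was 0.30 ± 0.08 (adjusted p = 0.0331). Within runs the difference of AII + EGF from control was 0.99 and 0.97. At 24 h the AII + EGF libraries (25.8 to 31.4 CPM) overlapped control (22.5 to 29.8 CPM). No exon of TGFBR2 overlaps the span of another gene in the annotation used.

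TGFBR1 was at 76.9, 71.2, 86.4 and 63.5 CPM in control at 6 h and at 86.9, 89.6, 98.4 and 99.1 CPM under AII + EGF. The lowest AII + EGF library was just above the highest control. The log2 change of 0.33 ± 0.10 passed the p threshold only (adjusted p = 0.00911, and 0.0531 with all 48 libraries). At 24 h TGFBR1 changed the other way under AII + EGF, from 67.2 ± 8.35 CPM in control to 51.2 ± 3.28 CPM (SD, n = 6 each), by log2 -0.39 ± 0.08 (adjusted p = 6.03e-04), again under the fold minimum. The highest AII + EGF library at 24 h (54.5 CPM) lay below the lowest control (55.1 CPM).

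SMAD3, the transducer, was higher under AII + EGF at 6 h by less than 1.5-fold. Control libraries were at 61.5, 69.7, 72.4 and 59.2 CPM and AII + EGF libraries at 99.0, 93.4, 95.9 and 101 CPM, without overlap. The log2 change was 0.57 ± 0.11 (adjusted p = 6.19e-05; 0.34 with all 48 libraries, adjusted p = 0.00871) and reached the fold minimum only without control replicate 4 (0.60), control replicate 5 (0.62) or AII + EGF replicate 2 (0.59) of 6 h. Under EGF it was 0.33 ± 0.12 (adjusted p = 0.0827) and under AII 0.17 ± 0.10 (adjusted p = 0.539).

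SMAD6, an inhibitory SMAD, fell under AII + EGF at 6 h, while SMAD7 and SKIL passed no test against control. SMAD6 was at 14.1, 15.1, 18.3 and 17.3 CPM in control, at 16.9, 17.6, 17.6, 15.3 and 18.7 CPM under AII, at 9.61, 12.7 and 14.1 CPM under EGF, and at 7.37, 8.35, 7.28 and 10.1 CPM under AII + EGF. The AII libraries overlapped the controls, the highest EGF library was level with the lowest control, and the AII + EGF libraries lay below every control, with the highest of them above the lowest EGF library. SMAD6 fell 1.96-fold under AII + EGF (log2 -0.97 ± 0.18, adjusted p = 5.29e-05), and its log2 change was -0.70 with all 48 libraries (adjusted p = 0.00104). Under EGF it was -0.42 ± 0.19 (adjusted p = 0.236) and under AII 0.09 ± 0.17 (interval -0.25 to 0.43). Within runs the difference of AII + EGF from control was -1.005 and -0.86.

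SMAD7 was at 16.5, 13.6, 14.9 and 16.8 CPM in control, at 18.1, 18.9 and 21.2 CPM under EGF and at 20.7, 18.96, 19.6 and 22.2 CPM under AII + EGF at 6 h. Every EGF and AII + EGF library was above every control, but the log2 changes of 0.32 ± 0.13 (adjusted p = 0.147) and 0.40 ± 0.12 (adjusted p = 0.0102) missed both thresholds, as they did with all 48 libraries (0.31, adjusted p = 0.0345, and 0.29, adjusted p = 0.0248). SKIL rested at 33.3 ± 3.11 CPM, against 37.8 ± 4.91 CPM with both stimuli (SD, n = 4 each), with overlap and a log2 change of 0.18 (interval -0.20 to 0.56, adjusted p = 0.503). Its AII libraries were spread from 28.5 to 49.3 CPM at 6 h, the 2 of the first title run being the highest.

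**Figure D2:**
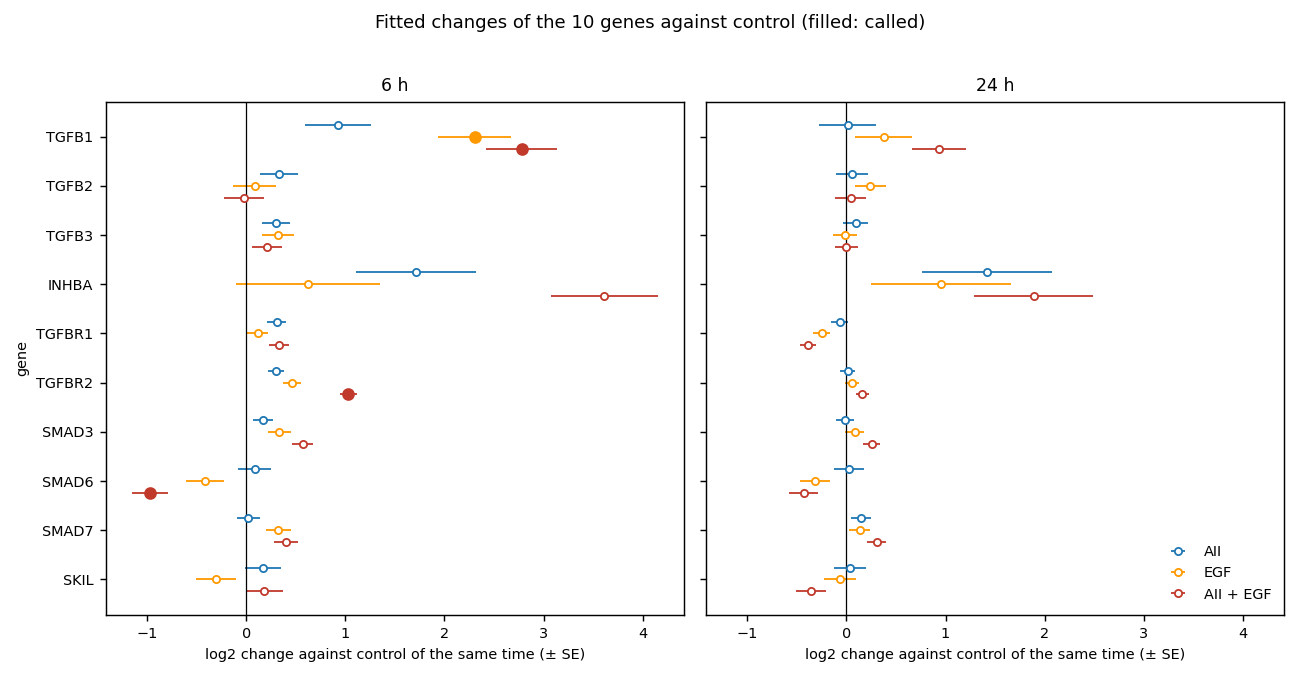
Fitted log2 change (x axis, ± SE) of each gene (y axis) against the control of the same time for AII, EGF and AII + EGF at 6 h (left) and 24 h (right), with filled symbols for called changes. The called changes are TGFB1 under EGF (2.31) and TGFB1 (2.78), TGFBR2 (1.03) and SMAD6 (-0.97) under AII + EGF, all at 6 h.

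Counted over the members, the joint stimulus at 6 h called 2 higher and 1 lower of 10, and EGF alone called 1 higher. Across all genes tested the share called was 6.45% higher and 5.53% lower under AII + EGF and 1.62% higher and 0.321% lower under EGF. By the p threshold alone 6 of 10 members passed under AII + EGF and 2 under EGF, against 23.4% and 3.37% of all genes. The median log2 change of the members was 0.36 under AII + EGF and 0.32 under EGF, and that of all genes -0.03 and -0.01. The 3 comparisons of a time share their control libraries. The labels do not say that libraries of a group came from separate cultures, so the p-values measure the spread between libraries, which may be technical. AII alone at 6 h called 0 of 10 members (0.459% of all genes higher, 0.0102% lower). There 5 of 10 members had an unadjusted p under 0.05, as did 2367 of the 19626 genes tested, and DESeq2 called 0 members.

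At 24 h no member was called against its control. Under AII + EGF 8 of 10 had an unadjusted p under 0.05, against 6293 of the 19626 genes tested. The share of all genes called was 1.7% higher and 1.2% lower. By the p threshold alone it was 10.4%, and TGFBR1 was the only member to pass. Under EGF 2 of 10 members and 2876 genes had an unadjusted p under 0.05 (0.163% of all genes called higher, 0.0815% lower). Under AII it was 1 of 10 members and 343 genes (0% and 0% of all genes called). DESeq2 called 1 member under AII + EGF, TGFB1, and 0 under EGF or AII.

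TGFB1 under AII + EGF at 24 h missed the p threshold narrowly, and its libraries differed along the order of the sample titles. The 6 control libraries were at 22.2, 27.6, 45.6, 23.4, 22.2 and 8.57 CPM, and the 6 AII + EGF libraries at 46.7, 48.5, 62.2, 54.2, 55.0 and 19.6 CPM. Replicate 6 was the lowest of each of the 4 groups, with 12.8 CPM under AII and under EGF, and these 4 libraries carry the last 4 titles of the series. What sets these libraries apart was not tested. The log2 change was 0.94 ± 0.27 (adjusted p = 0.0131). Within the 4 runs of titles at 24 h the difference of AII + EGF from control was 0.94, 0.83, 1.31 and 1.19, and with title run as a block the change was 0.97 ± 0.12 (adjusted p = 1.51e-07) and was called. Leaving out 1 library also brought the call for control replicate 3 (1.202, adjusted p = 0.00123), for replicate 6 of AII + EGF (1.10, adjusted p = 0.00195), EGF (0.94, adjusted p = 0.00644) or AII (0.94, adjusted p = 0.00948) at 24 h, and for control 6 h replicate 6 (0.96, adjusted p = 0.00821). Under EGF at 24 h the log2 change was 0.37 ± 0.29 (adjusted p = 0.589), with 0.66, 0.23, 0.56 and 0.58 within the 4 runs.

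**Figure D3:**
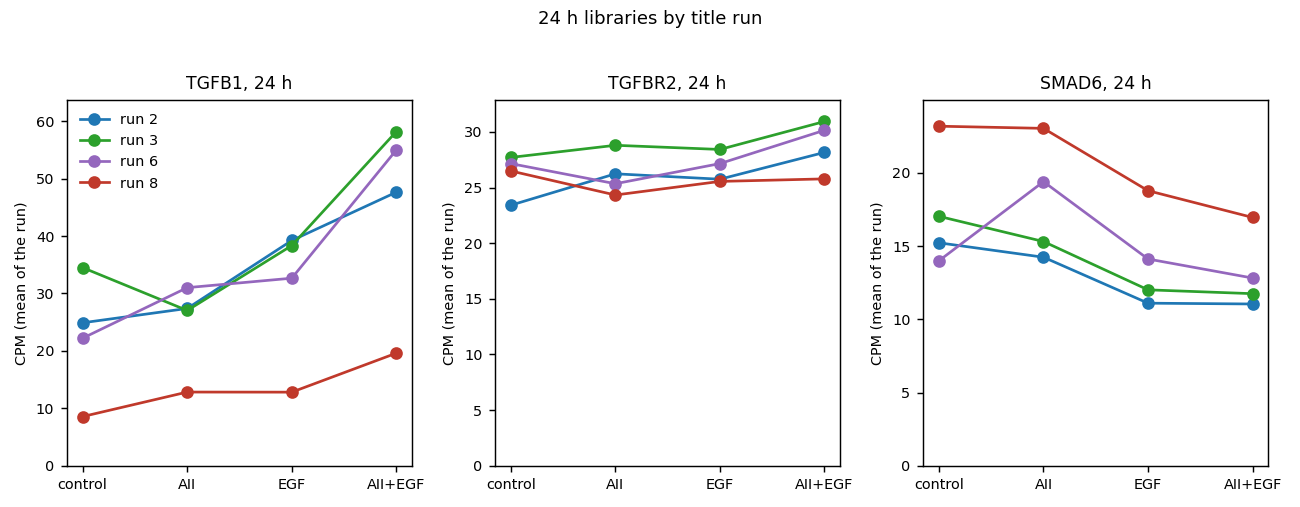
CPM (y axis, linear from 0; mean of the libraries of a run) of TGFB1, TGFBR2 and SMAD6 at 24 h by treatment (x axis), with 1 line per run of consecutive sample titles. TGFB1 in run 8 lies between 8.57 and 19.6 CPM, below the other 3 runs, and in every run AII + EGF is above control; SMAD6 in run 8 lies above the other runs.

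SMAD6 and SMAD3 kept the side of control that they had at 6 h, with smaller changes that were not called. SMAD6 under AII + EGF at 24 h was at 12.6 ± 2.26 CPM against 16.9 ± 3.38 CPM in control (SD, n = 6 each), a log2 change of -0.43 ± 0.14 (adjusted p = 0.0305) and of -0.46, -0.53, -0.13 and -0.45 within the 4 runs. SMAD3 was at 94.1 ± 10.8 against 78.9 ± 6.90 CPM (log2 0.25 ± 0.09, adjusted p = 0.0366). SMAD7 changed by 0.31 ± 0.10 (adjusted p = 0.0252), TGFBR2 by 0.16 ± 0.07 (adjusted p = 0.0949) and SKIL by -0.36 ± 0.15 (adjusted p = 0.1002). SKIL was thus above control on average at 6 h and below it at 24 h, neither called.

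What each stimulus added to the other was clearest for EGF added to AII at 6 h. Against AII alone, AII + EGF at 6 h called 3 of 10 members (7.6% of all genes): TGFB1 was higher by log2 1.86 ± 0.32 (adjusted p = 2.01e-05), TGFBR2 higher by 0.73 ± 0.08 (adjusted p = 3.10e-09) and SMAD6 lower, by -1.05 ± 0.17 (adjusted p = 1.18e-05). None of the 3 was called with the libraries of doubtful label kept (40 libraries), at 1.31 (adjusted p = 0.0213), 0.49 (adjusted p = 0.00573) and -0.70 (adjusted p = 0.0176). In these, the library labelled AII 6 h replicate 6 had 48.6 CPM of TGFB1, 42.3 of TGFBR2 and 9.04 of SMAD6, and the library labelled AII + EGF 6 h replicate 6 had 8.97, 27.3 and 15.5 CPM.

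Against EGF alone, AII + EGF called none of the 10 members at 6 h (2.92% of all genes, DESeq2 0 members). At an unadjusted p under 0.05 were 5 members and 4618 genes. TGFBR2 was 0.57 ± 0.09 higher on the log2 scale (adjusted p = 2.59e-05), just under the log2 of 1.5, and was called without AII replicate 1, AII replicate 2, EGF replicate 5 or control replicate 6 of 6 h, or without AII + EGF replicate 2 or control replicate 6 of 24 h (0.59 to 0.62). TGFB1 differed by 0.47 (interval -0.25 to 1.19, adjusted p = 0.461), INHBA by 2.99 ± 0.53 (adjusted p = 1.45e-04, under 5 CPM) and SMAD6 by -0.55 ± 0.19 (adjusted p = 0.0619). With all 48 libraries TGFBR2 (0.44, adjusted p = 0.0146) and INHBA (1.95, adjusted p = 0.0141) no longer passed the p threshold, and SMAD6 was at -0.34 (adjusted p = 0.238). At 24 h none was called against EGF (0.0917% of all genes) or against AII (1.45% of all genes), and DESeq2 called 0 in both. At an unadjusted p under 0.05 were 0 members and 2094 genes against EGF, and 6 members and 4956 genes against AII. TGFB1 against AII at 24 h was 0.93 ± 0.29 higher (adjusted p = 0.0322), and was called with title run as a block (0.82, adjusted p = 1.58e-05) and without AII + EGF replicate 6 (1.09, adjusted p = 0.00545).

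The interaction compares the joint change with the sum of the single log2 changes. It called no member at 6 h (0.229% of all genes) or at 24 h (0% of all genes), and DESeq2 called 0. At an unadjusted p under 0.05 were 2 members and 1916 genes at 6 h, and 0 members and 660 genes at 24 h. For SMAD6 at 6 h the interaction was -0.64 ± 0.26 (adjusted p = 0.342), and with title run as a block -0.70 ± 0.15 (adjusted p = 0.00725), which was called. With all 48 libraries it was -0.29 (adjusted p = 0.956), and with the doubtful labels alone kept -0.28 (adjusted p = 0.9997). It was 0.27 ± 0.12 for TGFBR2 (adjusted p = 0.430) and -0.45 for TGFB1 (interval -1.43 to 0.53). On the CPM scale, where the sum of the single differences is the reference, TGFB1 under AII + EGF at 6 h lay 11.9 ± 4.61 CPM (SE from the group SDs) above its expectation of 68.4 CPM, but -3.65 ± 13.01 with all 48 libraries. TGFBR2 lay 10.3 ± 1.89 CPM above an expectation of 38.3 (5.08 ± 4.75 with 48), and SMAD6 differed by -4.86 ± 1.86 CPM from 13.1 (-2.15 ± 2.17 with 48). These excesses were not tested.

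Unstimulated cells differed between the 2 times in the TGF-beta ligands. Control at 24 h against 6 h called 2 of 10 members (6.73% of all genes). TGFB3 rose from 5.72 ± 0.937 CPM (n = 4) to 10.8 ± 1.53 CPM (n = 6), by log2 0.92 ± 0.14 (adjusted p = 5.59e-06), without overlap. TGFB1 was higher by 1.09 ± 0.32 (adjusted p = 0.00902), and this call was lost without any 1 of 23 libraries, at an adjusted p of 0.01 to 0.0485; the controls among them were 24 h replicates 1 to 5 and 6 h replicates 4 to 6, and without 6 h replicate 6 the change was 0.86. TGFB2 was higher by 0.77 ± 0.18 (adjusted p = 0.00122) but under 5 CPM, and was called without control 24 h replicate 2 (0.82), 3 (0.81) or 6 (0.87). Only TGFB3 was also called with all 48 libraries, at 0.70 (adjusted p = 0.00112), while TGFB1 was at 0.69 (adjusted p = 0.147). Time and title run cannot be told apart, since no run holds both times.

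The joint response differed between 24 h and 6 h for 3 members, in a test of the difference itself (11.6% of all genes called). It was smaller at 24 h for TGFB1, by -1.84 ± 0.44 on the log2 scale (adjusted p = 0.00157), and for TGFBR2, by -0.87 ± 0.11 (adjusted p = 1.00e-07). For TGFBR1 the difference of -0.72 ± 0.13 (adjusted p = 4.58e-05) lay between a change of 0.33 at 6 h and one of -0.39 at 24 h, of opposite sign. With all 48 libraries the TGFB1 difference was -1.13 (adjusted p = 0.0792) and was not called, and TGFBR2 (-0.63, adjusted p = 0.00194) and TGFBR1 (-0.62, adjusted p = 5.96e-04) were. For SMAD6 the difference was 0.54 ± 0.23 (adjusted p = 0.0845). For the response to EGF alone 3 members and 3003 genes were at an unadjusted p under 0.05. No member was called (1.03% of all genes, DESeq2 1 member), with TGFB1 at -1.93 ± 0.46 (adjusted p = 0.0121). That gene was called with title run as a block (-1.68, adjusted p = 2.93e-06) and without control 6 h replicate 3 (-2.18, adjusted p = 0.00794) or replicate 6 of control (-2.08, adjusted p = 0.00260), AII (-1.93, adjusted p = 0.00817) or AII + EGF (-1.93, adjusted p = 0.00586) at 24 h. The response to AII alone called no member (0.138% of all genes, DESeq2 0 members), with 3 members and 1574 genes at an unadjusted p under 0.05.

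Other genes of the pathway were taken from 6 lists of 91 genes, 83 of them tested. After 6 h of AII + EGF 14 were called higher and 4 lower, against the 6.45% and 5.53% of all genes above, and after 24 h 2 higher and 1 lower. EGF called 3 higher at 6 h and 0 at 24 h, and AII 0 at both times. At 24 h of AII + EGF a further 10 passed the p threshold without being called, of which 9 were under the fold minimum and 1, INHBE, under 5 CPM.

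None of 11 tested relatives of the ligands was called under any stimulus, and their median log2 change was 0.00 at 6 h of AII + EGF. INHBE, 1 of these relatives, was higher at 24 h of AII + EGF by 2.05 ± 0.23 (adjusted p = 6.72e-08). It stayed under the 5 CPM minimum, at 4.08 CPM against 0.98 CPM in control. Among 14 tested genes listed under ligand latency and activation, 2 were called higher and 1 lower at 6 h. ITGAV, an integrin subunit that takes part in release of the ligand, was higher by 0.71 ± 0.16 (adjusted p = 6.88e-04). FURIN, the protease that cleaves the ligand precursor, was higher by 0.73 ± 0.12 (adjusted p = 3.84e-06). LTBP2, a member of the LTBP family by name, changed by -1.37 ± 0.16 (adjusted p = 5.89e-09). With 38 libraries LTBP1 (-0.30), LTBP3 (-0.32) and LTBP4 (-0.33) were not called. LTBP2 was at 8.35 ± 0.862 CPM in unstimulated cells, against 3.22 ± 0.601 CPM with both stimuli (SD, n = 4 each), without overlap, and the median of this list was -0.14. ITGAV (0.58) and FURIN (0.49) were under the fold minimum with all 48 libraries. Of 12 receptors and coreceptors, ACVR1, a type I receptor for BMPs and activins, was the only one called, from 13.9 ± 1.16 to 31.8 ± 2.00 CPM (log2 1.195 ± 0.10, adjusted p = 9.32e-12), and it was higher than under EGF alone too (0.75 ± 0.11, adjusted p = 9.33e-06), though with all 48 libraries that difference was 0.54 and was not called (adjusted p = 0.0122). ACVRL1, a type I receptor best known in endothelium, was lower by -1.28 ± 0.17 (adjusted p = 2.61e-07) but under 5 CPM (3.97 ± 0.793 in control, 1.62 ± 0.482 CPM with both stimuli, n = 4 each), and with all 48 libraries it was called (-1.35, adjusted p = 4.54e-06). Of 10 other SMADs and partners only ZFYVE9 (SARA), which presents SMAD2 and SMAD3 to the receptor, was called (0.69 ± 0.08, adjusted p = 3.04e-08).

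Antagonists and feedback genes were called in both directions. Of 16 tested, 3 were higher at 6 h of AII + EGF and 1 lower: NOG, the BMP antagonist noggin, by 2.29 ± 0.33 (5.12 CPM, adjusted p = 5.93e-07), LDLRAD4, which keeps SMADs from the receptor, by 0.82 ± 0.23 (5.48 CPM, adjusted p = 0.00607), NEDD4L, a ubiquitin ligase for activated SMADs, by 0.71 ± 0.09 (adjusted p = 5.31e-08), and BAMBI, a receptor decoy, by -0.74 ± 0.18 (adjusted p = 0.00112). None of these 4 was called with all 48 libraries. At 24 h CHRD (chordin, a BMP antagonist) was called, at 38.3 ± 4.93 against 21.4 ± 4.83 CPM (SD, n = 6 each; log2 0.84 ± 0.14, adjusted p = 3.03e-05).

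Genes listed as SMAD targets, many of which respond to other signals as well, gave 7 called higher and 2 lower of 20 tested, with a median log2 change of 0.41. The 4 largest were JUNB, an AP-1 subunit (2.31 ± 0.16, adjusted p = 3.81e-14), BHLHE40, a clock-linked repressor (1.99 ± 0.34, adjusted p = 1.31e-05), SPHK1, sphingosine kinase (1.74 ± 0.15, adjusted p = 3.82e-12), and ID1 (1.37 ± 0.23, adjusted p = 7.26e-06). JUNB was at 13.4 ± 2.89 CPM in control, 16.8 ± 1.22 under AII, 25.9 ± 2.23 under EGF and 66.4 ± 7.70 under AII + EGF. Under EGF alone at 6 h the called genes were JUNB (0.95 ± 0.17, adjusted p = 1.49e-04), SPHK1 (0.73 ± 0.15, adjusted p = 0.00160) and the cell cycle inhibitor CDKN1A (0.63 ± 0.15, adjusted p = 0.00526). At 24 h of AII + EGF SPHK1 was higher by 0.70 ± 0.12 (adjusted p = 3.14e-05) and SNAI2, a repressor of epithelial genes, lower, by -0.74 ± 0.09 (adjusted p = 5.23e-07). With all 48 libraries CDKN1A under EGF (0.53), KLF10 at 6 h of AII + EGF (0.92 with 38 libraries, 0.55 with 48, adjusted p = 0.0452) and SPHK1 at 24 h (adjusted p = 0.0113) were not called. Besides ACVRL1, that fit added calls at 6 h for LTBP2 (-0.84, adjusted p = 0.00216), FBN1 (-0.66, adjusted p = 0.00645) and ID1 (0.87, adjusted p = 0.00868) under EGF, and for LTBP4 (-0.70, adjusted p = 0.00229) and MMP14 (-0.84, adjusted p = 3.28e-04) under AII + EGF.

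**Figure D4:**
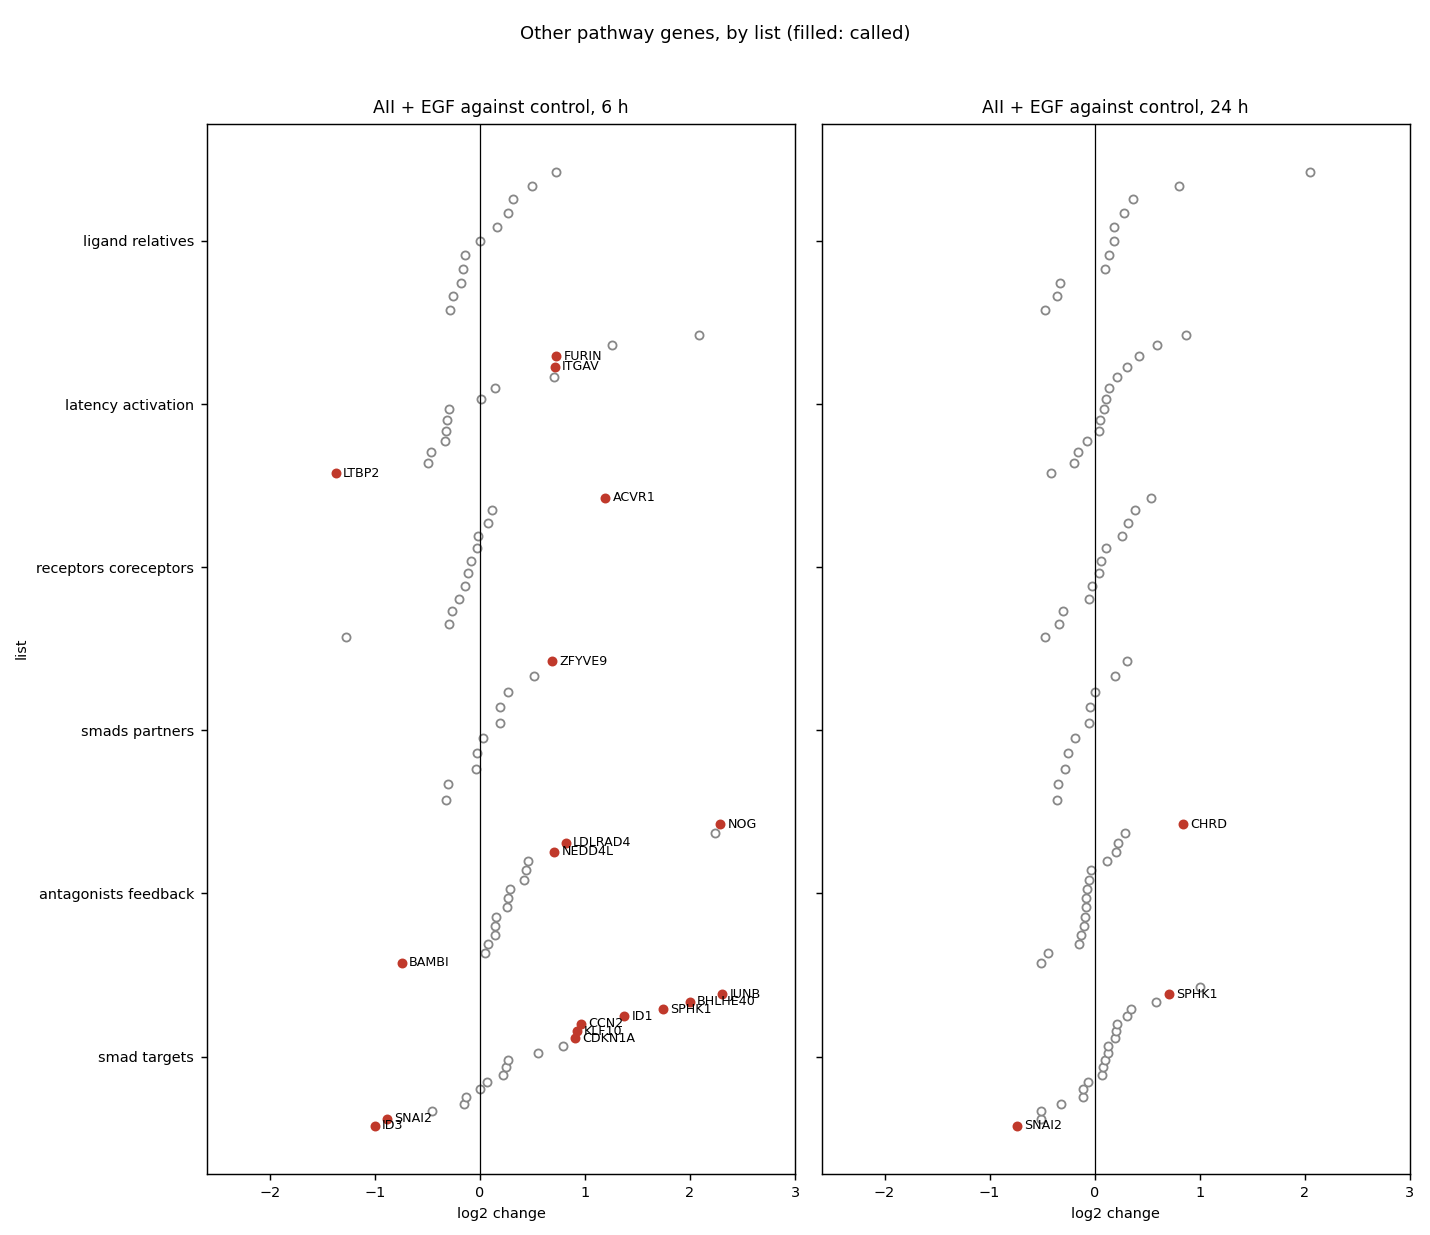
Log2 change under AII + EGF against control (x axis) of the 83 tested pathway genes at 6 h (left) and 24 h (right), sorted within each list (y axis), with filled and named points for called genes. At 6 h 14 filled points lie right of 0 and 4 left of it, and at 24 h 2 and 1.

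The genes whose 8 group means (log2 CPM) followed those of a called member most closely were sought among 11720 genes above 5 CPM. For TGFB1 they were YBX3 (Pearson r = 0.994), IL27RA (0.993) and GMDS (0.990). For TGFBR2 they were MAP2K1 (0.994), ACVR1 (0.993) and CARD10 (0.990), so that the receptor gene nearest in pattern was the 1 called in the list above. For SMAD6 they were TPCN2 (0.983), ACOT2 (0.982) and ZDHHC21 (0.979). With 8 points that share libraries and many genes ranked, these values describe likeness only.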

How the data were processed

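Poly(A) RNA-seq of 48 libraries was analysed from the gene counts that the authors deposited, made by them with HISAT2 2.1.0 on hg38 and featureCounts (from the submitters' processing notes). Strand and multi-mapping settings are not given in the sources used here. Groups came from the sample labels, and replicate numbers only follow accession order. The members and pathway lists were chosen with earlier results of these data known.

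Of 48 libraries, 10 were left out (4 near-identical pairs and 2 with doubtful labels), as the data showed. Genes passing filterByExpr (19626) were fitted together over 8 groups with edgeR 4.0.16 (R 4.3.3, limma 3.58.1), TMM scaling and the quasi-likelihood test, and 16 comparisons were drawn from that fit. A call needed an adjusted p under 0.01, 1.5-fold and 5 CPM in the highest group compared. Named genes were all members, called list genes (the 4 with the largest change where a list had more) and the 3 nearest patterns of each called member. The 2 SMAD targets called lower at 6 h were named as well. DESeq2 1.42.0 was an alternative. The scripts were tested on simulated data. Depth was 17.8 to 36.2 M counts a library. Title runs are stretches of consecutive sample titles, not a stated batch. Positions and promoters came from RefSeq (GRCh38.p14). Exon lengths and overlaps came from a GENCODE annotation on an earlier genome build than the hg38 build of the counts.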

Additional observations from a re-analysis of the deposited data

Results flagged for a closer look

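In 10 of 70 sets of 4 to 6 libraries (1 gene in 1 group) the highest or lowest library stood apart from the others by Dixon's criterion, where chance flags about 5% of sets. Replicate 6 of 24 h made up most of them. For TGFB1 it had 12.8 CPM under AII (the others 26.8 to 31), 12.8 CPM under EGF (32.7 to 39.4) and 19.6 CPM under AII + EGF (46.7 to 62.2). For TGFB2 it had 4.17 CPM under EGF (5.84 to 6.27) and 4.02 CPM under AII + EGF (4.98 to 5.55), and for SMAD3 60.8 CPM under EGF (83.8 to 92.2) and 73.9 CPM under AII + EGF (92.8 to 104). SMAD6 stood apart upwards, with 16.9 CPM under AII + EGF (10.9 to 12.8). Beyond replicate 6, TGFB2 had 3.36 CPM in AII + EGF 6 h replicate 5 (2.51 to 2.63) and SKIL 28.8 CPM in AII 24 h replicate 3 (36.9 to 38.8).

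The response to AII + EGF differed between 24 h and 6 h, by the test of the difference, by -1.84 on the log2 scale for TGFB1, -0.72 for TGFBR1 and -0.869 for TGFBR2.

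Among the libraries left out of the main comparisons, 5 stimulated ones exceeded the highest 6 h control in use for TGFB1 (17.3 CPM) and 6 for TGFBR2 (25.6 CPM). TGFB1 was at 67.2, 54.2 and 54.7 CPM in the libraries labelled EGF 6 h replicates 1, 2 and 6, at 67.2 CPM in AII + EGF 6 h replicate 4 and at 48.6 CPM in AII 6 h replicate 6, but at 8.97 CPM, below that control, in AII + EGF 6 h replicate 6. TGFBR2 was at 40.2, 26.6 and 26.3 CPM in EGF 6 h replicates 1, 2 and 6, at 40.3 CPM in AII + EGF 6 h replicate 4, at 42.3 CPM in AII 6 h replicate 6 and at 27.3 CPM in AII + EGF 6 h replicate 6. The 2 libraries at 67.2 CPM of TGFB1 form a near-identical pair, as do EGF 6 h replicates 2 and 6. The values within such a pair are not independent. Left-out libraries labelled control were not part of these counts. For both genes the mean over all 6 h controls was higher than the mean of those in use. The left-out 6 h controls thus lay higher on average than those in use, and on average also above the highest control in use. An excess over that control therefore does not tell stimulated libraries from controls. Whether an excess over the highest control in use marks a stimulus was not tested.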

How the results depend on the processing

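No member's called change reversed under any alternative, and RLE scaling and the study's own filter moved no count of members called. With an adjusted p of 0.05, without the low-count filter, or with title runs 7 and 8 left out (chosen after seeing the data), 1 member (against 0) was called for AII + EGF at 24 h, for AII + EGF against AII at 24 h and for the EGF response. DESeq2 gave 1 for AII + EGF at 24 h and for the EGF response. Without the fold minimum the counts were 2 for EGF and 5 for AII + EGF at 6 h, 1 for AII + EGF at 24 h and 1 for AII + EGF against EGF at 6 h, and this last was also 1 without the abundance minimum and in a fit of only the groups compared. Without the abundance minimum AII + EGF at 6 h called 4 against control and 4 against AII, and control 24 h against 6 h called 3. Control 24 h against 6 h called 1 in the fit of only the groups compared, with all 48 libraries, with 40 (doubtful labels kept) and with 46 (pairs kept), the last also giving 1 for the EGF response. AII + EGF against AII at 6 h called 0 members with all 48 libraries and with 40. Leaving out 1 library gave 3 to 4 members for AII + EGF at 6 h, 0 to 1 for AII + EGF at 24 h, against EGF at 6 h, against AII at 24 h and for the EGF response, and 1 to 3 for control 24 h against 6 h. The labels state no pairing. With title run as a replicate block, 1 member was called for AII + EGF at 24 h, for AII + EGF against AII at 24 h, for the 6 h interaction and for the EGF response; control 24 h against 6 h could not be fitted with the block. Over all genes, the calls with 38 and with all 48 libraries numbered 1492 and 310 for AII + EGF against AII at 6 h, 574 and 64 for AII + EGF against EGF at 6 h, and 1320 and 352 for control 24 h against 6 h; the 6 h interaction called 45, but 0 with all 48 or with 40 libraries, 10 with 46, 93 with DESeq2 and 168 with the block. The causes were not tested. Depth limits INHBA, at 1 to 3 counts in each 6 h control.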
